A study of Mus musculus with 96 samples.

Results

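Cyp4a14, Aldh3a2, Phyh, Nudt7 and Pex10 are genes of the peroxisomal and omega oxidation of fatty acids, and they are 5 of the 7394 gene targets measured in mouse liver sections. They were found in the table by target name and had been chosen by their values between diets in these same samples, so that the set holds genes with higher and genes with lower values on the high-fat diet (HFD). Their differences between diets are therefore given as a description with no test. All 5 were among the 6805 genes tested, which exceeded the limit of quantitation (LOQ, derived for each area from its negative probe) in at least 10 of 96 areas. Phyh was above it in 96 areas, Nudt7 in 92, Cyp4a14 in 66, Pex10 in 64 and Aldh3a2 in 62.

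RNA was measured with GeoMx, an assay that hybridizes tagged probes to a tissue section, cleaves the tags off with ultraviolet light in selected areas and sequences them. The groups were HetKO HFD, HetKO LFD, Wt HFD and Wt LFD, with 4 male mice in each, all on a C57BL/6 background and about 8 weeks old when they began 15 weeks on the HFD or a purified low-fat diet (LFD). HetKO mice are heterozygous in the whole body for an insertion of loxP sites around exons 4 and 5 that disrupts Gaa, the gene of lysosomal acid alpha-glucosidase, while Wt mice have the intact gene. In every mouse 3 perivenous and 3 periportal areas of illumination (AOIs), picked by stains for Cyp2e1 and E-cadherin, were collected, and the 3 were averaged to 1 value per mouse and zone, which makes 32 values per gene. The mice are separate animals, and levels below are normalized counts, in which the third quartile was set to 60.2 for each AOI. An AOI holds many cells, so fewer cells that express a gene and less RNA per cell cannot be told apart.

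Fatty acids can be oxidized from either end or next to the carboxyl group. In omega oxidation a P450 of family 4 in the endoplasmic reticulum hydroxylates the far end of the chain, and alcohol and aldehyde dehydrogenases turn that end into a second acid group. Peroxisomes shorten very long, branched and dicarboxylic chains by beta-oxidation, and remove the carboxyl carbon of branched phytanic acid by alpha-oxidation before beta-oxidation can begin. In rodent liver many of these genes are targets of Ppara, a nuclear receptor that binds fatty acids. Cyp4a14 hydroxylates the omega end of fatty acids and Aldh3a2 oxidizes long fatty aldehydes to acids. Phyh carries out the first step of alpha-oxidation, Nudt7 cleaves coenzyme A and its acyl esters inside peroxisomes, and Pex10 is a ubiquitin ligase subunit needed to recycle the import receptor of peroxisomal matrix proteins.

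The AOIs held 60874 to 1772443 deduplicated reads (median 536938) and 118 to 788 nuclei. The recovered reads per AOI had medians of 355 for Phyh, 144 for Nudt7, 48 for Aldh3a2, 37.5 for Cyp4a14 and 30 for Pex10, so the precision was lowest for the last 3. All 8 perivenous hepatocyte markers were higher and all 10 periportal ones lower in perivenous AOIs, in the direction of the zone labels. Gaa averaged 41 ± 5.28 perivenously in HetKO HFD and 46.3 ± 7.28 in Wt HFD, and 44.8 ± 7.79 in HetKO LFD and 62.2 ± 5.84 in Wt LFD (SD, n = 4 mice each). On the HFD both means lay below the mean LOQ of the same AOIs, 50.6 in HetKO HFD and 65.9 in Wt HFD. The mice overlapped there, at 36.5 to 47.9 and 39.8 to 54.8, so the HFD values do not check the labels. On the LFD the means lay above the mean LOQ, 36.2 in HetKO LFD and 38.6 in Wt LFD. The position of the Gaa probe relative to the disrupted exons is not given in the sources used here, so the LFD values check the labels only in part. The AOIs of each diet lay on a slide of their own, so diet and slide cannot be told apart. In Wt HFD mice 2, 3 and 4 between 12.7% and 17.6% of targets were above the LOQ, whereas Wt HFD mouse 1 had 29.6% perivenously and 45.2% periportally, and HetKO HFD mice had 34.5% to 45.9%. Of the HetKO LFD mice, mouse 1 had 5 AOIs whose library names carry another number than the rest, which was read as another plate.

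The 250 bases before the annotated start are shown for the members that matched the RefSeq promoter table of GRCm38.p6. The table held 4 of the 5 members, all except Cyp4a14. The windows lie at chr11:61267187-61267436 on the minus strand for Aldh3a2, chr2:4918746-4918995 on the plus strand for Phyh, chr8:114133324-114133573 on the plus strand for Nudt7 and chr4:155066780-155067029 on the plus strand for Pex10. The annotated genes span chr11:61223417-61267528 for Aldh3a2, chr2:4918996-4938743 for Phyh, chr8:114133574-114154731 for Nudt7 and chr4:155067030-155072406 for Pex10. Nudt7 has 2 windows in the table, and the one at the start of the annotated gene was used, whereas the start listed for Aldh3a2 lies inside the annotated gene. Each window is given because it belongs to a member whose values are followed below. The letters run 5′ to 3′ along the gene's strand, and capitals mark matches to the motifs searched.
Aldh3a2: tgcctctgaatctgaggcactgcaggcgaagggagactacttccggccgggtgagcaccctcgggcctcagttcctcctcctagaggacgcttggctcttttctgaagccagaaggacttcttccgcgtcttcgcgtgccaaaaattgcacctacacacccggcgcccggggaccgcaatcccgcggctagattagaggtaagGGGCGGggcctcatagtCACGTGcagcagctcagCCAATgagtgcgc
Phyh: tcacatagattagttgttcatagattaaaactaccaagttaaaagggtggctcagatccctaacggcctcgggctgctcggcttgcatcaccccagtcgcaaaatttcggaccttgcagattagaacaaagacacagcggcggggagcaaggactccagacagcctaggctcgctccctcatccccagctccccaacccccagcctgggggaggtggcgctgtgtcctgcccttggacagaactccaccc
Nudt7: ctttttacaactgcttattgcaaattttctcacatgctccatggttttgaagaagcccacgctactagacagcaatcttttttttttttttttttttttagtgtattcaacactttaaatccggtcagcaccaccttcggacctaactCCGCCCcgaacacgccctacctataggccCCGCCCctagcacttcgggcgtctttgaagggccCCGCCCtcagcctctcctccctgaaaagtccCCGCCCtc
Pex10: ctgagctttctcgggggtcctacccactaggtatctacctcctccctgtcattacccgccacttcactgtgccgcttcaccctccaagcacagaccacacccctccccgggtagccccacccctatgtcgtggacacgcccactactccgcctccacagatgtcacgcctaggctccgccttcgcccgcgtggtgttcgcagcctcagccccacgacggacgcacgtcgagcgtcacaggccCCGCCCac

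Motifs were searched on both strands in the same 250 bases of 32851 promoters. A GC box (GGGCGG) was in 32.7% of promoters, and Nudt7 had 4 matches, all on the minus strand, with first bases 102, 73, 39 and 8 before the start. Pex10 had 1 GC box, 8 bases before the start on the minus strand. Aldh3a2 had a GC box 47 bases before the start, an E-box (CACGTG, in 6.02% of promoters) 30 bases before it and a CCAAT box (CCAAT, in 33.8%) 13 bases before it, all without overlap. The nuclear receptor core motif AGGTCA (in 14% of promoters), its direct repeat with a single base between the copies (in 0.0335%), TATAAA (in 12.4%) and the Tcf motif ATCAAAG (in 3.21%) were in none of these windows. Phyh matched no motif searched. The GC content was 65.6% for Pex10, 61.2% for Aldh3a2, 56.4% for Phyh and 49.2% for Nudt7, against a median of 52.4% and quartiles of 45.2% and 61.2% over all promoters.

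Across the lobule, Aldh3a2, Cyp4a14, Nudt7 and Phyh were higher perivenously than periportally, by 4.67, 1.54, 1.33 and 1.31-fold, and Pex10 differed by less than the spread between mice. Zone was not used to choose the genes, and this comparison asks how each of them is laid out between the central vein and the portal tract. With all 16 mice and the mouse as a block, 4 of 5 members passed the test (limma, adjusted p under 0.05 by Benjamini-Hochberg over all 6805 genes), against 7.95% of all genes higher and 8.16% lower. Each of 3 members, Aldh3a2, Phyh and Nudt7, was higher perivenously in at least 15 of 16 mice, against 3.04% of genes tested. Such counts of mice use the mean of log2 values over the AOIs, as the test does, whereas the levels printed are means of normalized counts. With a log2 difference of at least 0.80 required as well, 1 member passed, Aldh3a2.

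**Figure D1:**
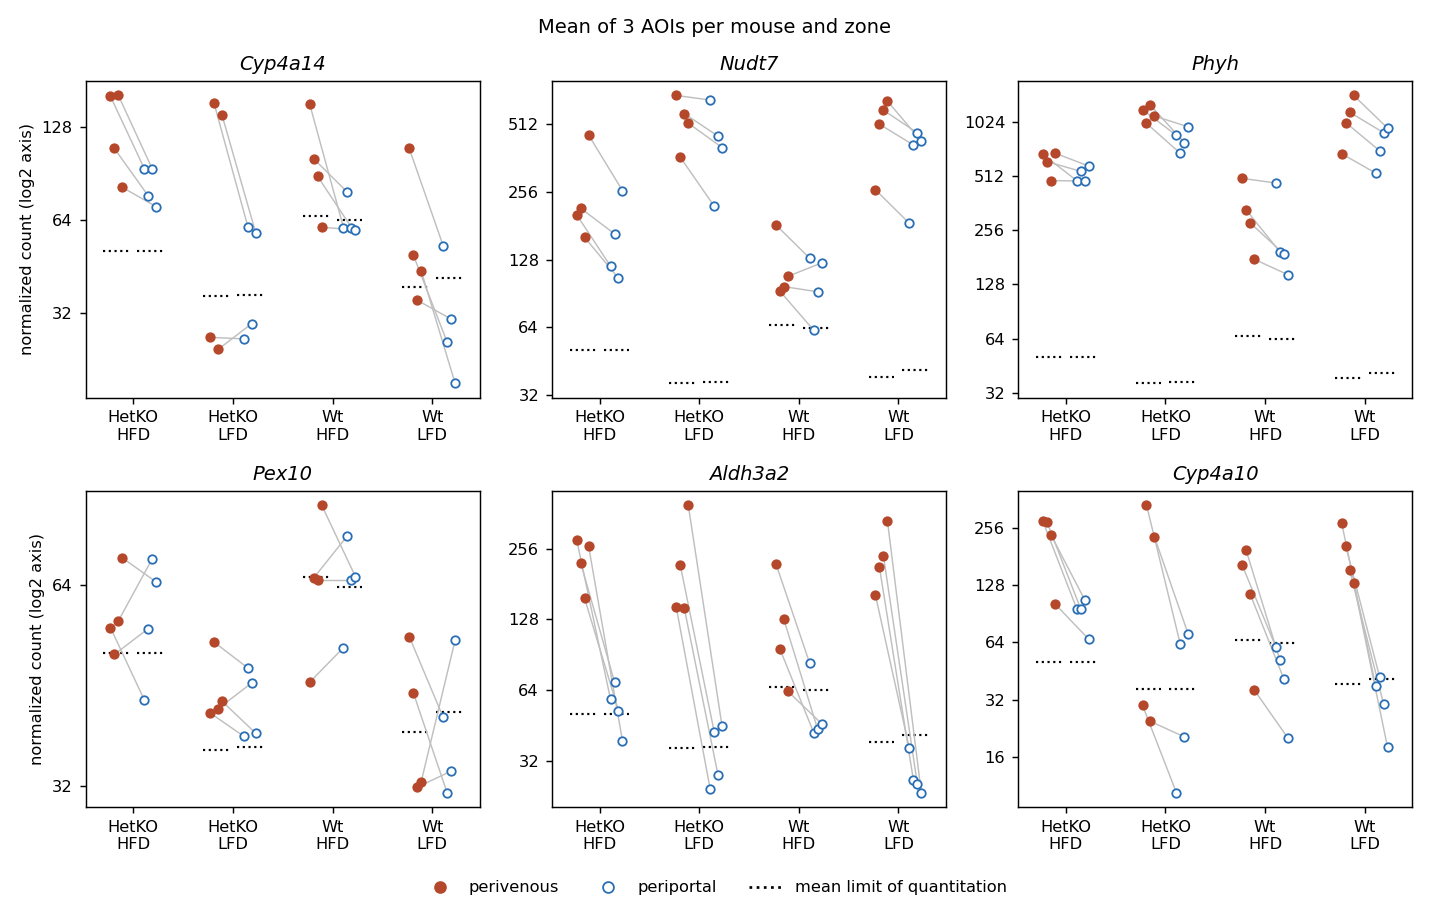
Normalized counts (y axis, log2 scale) of Cyp4a14, Nudt7, Phyh, Pex10, Aldh3a2 and the neighbouring Cyp4a10 in each of 16 mice, by group (x axis). Filled circles are perivenous and open circles periportal means of 3 AOIs, a line joins the zones of a mouse and the dotted bars are the mean LOQ of the group and zone. Aldh3a2 falls below the LOQ in many periportal values, and Pex10 stays near the LOQ in every group.

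Aldh3a2, the fatty aldehyde dehydrogenase, had the steepest zone difference of the 5 members. In HetKO HFD mice 1 to 4 it stood at 279, 223, 157 and 262 perivenously, against 58.5, 69.3, 52.3 and 38.9 periportally. HetKO LFD mice had 144, 218, 143 and 393 perivenously, against 24.3, 42.6, 27.7 and 44.8 periportally. In both HetKO groups the zones did not overlap. Wt HFD mice had 221, 95.8, 128 and 63.2 perivenously, against 83.1, 42.1, 43.5 and 46 periportally, and here the zones overlapped, with mouse 4 perivenously (63.2) below mouse 1 periportally (83.1). Wt LFD mice had 162, 213, 238 and 336 perivenously, against 36.1, 26.6, 25.5 and 23.4 periportally, again without overlap. The log2 difference between perivenous and periportal values was 2.22 ± 0.16 over all mice (SE, limma, adjusted p = 9.57e-13) and was positive in 16 of 16 mice. HetKO HFD had 2.07 ± 0.16, HetKO LFD 2.59 ± 0.13, Wt HFD 1.17 ± 0.17 and Wt LFD 3.06 ± 0.20, and it passed the test in each of the 4 groups. Periportal Aldh3a2 exceeded the LOQ in 8 of 12 HetKO HFD, 3 of 12 HetKO LFD, 4 of 12 Wt HFD and 1 of 12 Wt LFD AOIs, so the fold there depends on values near background.

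Cyp4a14, the omega-hydroxylase, was higher perivenously in 14 of 16 mice, by 0.62 ± 0.10 on the log2 scale (SE, limma, adjusted p = 2.53e-05). In HetKO HFD mice 1 to 4 it was 161, 109, 162 and 81.5 perivenously, against 93.8, 76.5, 93.6 and 70.6 periportally. HetKO LFD mice fell into separate levels, with 26.6, 153, 24.3 and 140 perivenously, against 26.3, 60.8, 29.5 and 57.9 periportally. Mice 2 and 4 of that group were above mice 1 and 3 in both zones, and more so perivenously. Their zone differences were 1.32 and 1.27 on the log2 scale, against 0.04 and -0.29 in mice 1 and 3. In mice 1 and 3 Cyp4a14 exceeded the LOQ in 0 of 3 AOIs of either zone, so their zone differences compare values near background. Wt HFD mice had 152, 101, 88.5 and 60.5 perivenously, against 60.4, 78.6, 60.4 and 59.4 periportally. Wt LFD mice had 109, 49.3, 35.1 and 43.7 perivenously, against 52.8, 25.7, 30.5 and 18.9 periportally, and mouse 3, higher perivenously by these means, differed by -0.02 on the log2 scale. The zones overlapped in every group, and the zone difference passed the test in HetKO HFD (limma, adjusted p = 0.00562) and Wt LFD (adjusted p = 0.0115) but not in HetKO LFD (adjusted p = 0.158) or Wt HFD (adjusted p = 0.201).

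Phyh, the hydroxylase of phytanoyl-CoA, had a small zone difference in the same direction in 16 of 16 mice, 0.39 ± 0.06 on the log2 scale (SE, limma, adjusted p = 7.46e-06). HetKO HFD mice 1 to 4 had 676, 617, 484 and 688 perivenously, against 484, 545, 481 and 583 periportally. HetKO LFD mice had 1200, 1008, 1267 and 1106 perivenously, against 864, 685, 788 and 963 periportally. The zones did not overlap in HetKO LFD and overlapped in the other groups. In Wt HFD mice Phyh stood at 498, 333, 282 and 177 perivenously, against 469, 194, 189 and 145 periportally, with mouse 1 the highest in both zones. Wt LFD mice had 682, 1018, 1160 and 1440 perivenously, against 533, 709, 894 and 948 periportally, with mouse 1 the lowest in both zones.

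Nudt7, the coenzyme A hydrolase, was higher perivenously in 15 of 16 mice by 0.41 ± 0.07 on the log2 scale (SE, limma, adjusted p = 1.84e-05). HetKO HFD mice 1 to 4 had 203, 217, 161 and 459 perivenously, against 120, 167, 106 and 260 periportally. HetKO LFD mice had 689, 366, 572 and 519 perivenously, against 657, 222, 454 and 404 periportally. Zones overlapped in both groups, with HetKO HFD mouse 4 well above the other 3 mice of its group. Wt HFD mice had 183, 92.9, 97.3 and 108 perivenously, against 130, 62.2, 92.2 and 124 periportally. Wt LFD mice had 262, 513, 592 and 650 perivenously, against 186, 415, 470 and 432 periportally. Mouse 1 of Wt LFD was again the lowest of its group, and mouse 4 of Wt HFD was the exception to the direction.

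Pex10, the ubiquitin ligase subunit, differed between zones by 0.01 on the log2 scale, with a 95% interval of -0.14 to 0.15, and was higher perivenously in 8 of 16 mice (limma, adjusted p = 0.972). HetKO HFD mice had 50.4 to 70.3 perivenously and 43.1 to 70.1 periportally, and HetKO LFD mice 41.2 to 52.6 and 38 to 48.1. Wt HFD mice had 45.8 to 84.4 perivenously and 51.6 to 75.9 periportally, and Wt LFD mice 31.9 to 53.6 and 31.3 to 52.9. The highest of its 32 values was 2.69 times the lowest, whereas this ratio was 16.8 for Aldh3a2, 11.1 for Nudt7, 9.94 for Phyh and 8.57 for Cyp4a14.

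Within single groups, 3 members passed the zone test in HetKO HFD (Aldh3a2, Nudt7 and Cyp4a14, against 2.54% of genes higher), 2 in HetKO LFD (Aldh3a2 and Phyh, against 3.63%), 1 in Wt HFD (Aldh3a2, against 0.705%) and 2 in Wt LFD (Aldh3a2 and Cyp4a14, against 2.65%). A zone test that was passed in 1 group and missed in another does not show that the groups differ. The difference itself was tested between genotypes on each diet, and 0 of 5 members passed on the HFD or the LFD (limma), as did 0% of genes, while 1 member and 406 genes had an unadjusted p under 0.05 on the HFD, and 0 members and 265 genes on the LFD. That member was Aldh3a2, whose zone difference was larger by 0.90 ± 0.25 in HetKO HFD than in Wt HFD (unadjusted p = 0.00155, adjusted p = 0.533) and smaller, at -0.48 ± 0.27, in HetKO LFD than in Wt LFD (adjusted p = 0.999). When HetKO LFD mouse 1 or mouse 2 was left out, or Wt LFD mouse 2 or mouse 4, 1 member passed in the group concerned. The 3 members of HetKO HFD were 2 without HetKO HFD mouse 1.

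**Figure D2:**
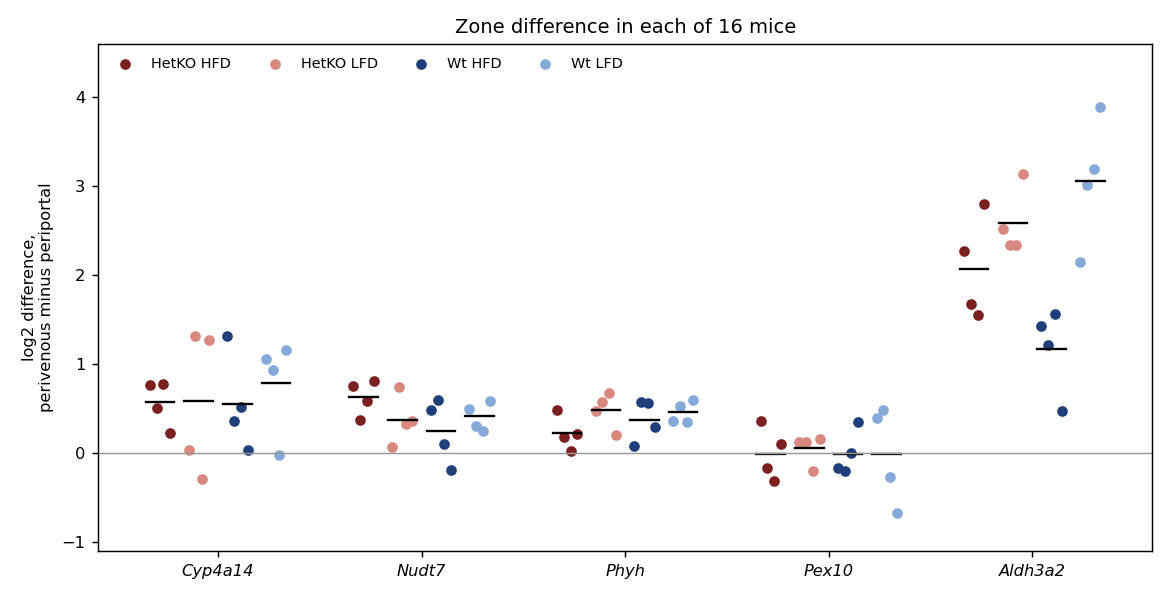
Log2 difference between the perivenous and the periportal value (y axis) of the 5 members (x axis) in each of 16 mice. Points are single mice, colours are the 4 groups and black bars are group means. Aldh3a2 lies between 0.47 and 3.89, above zero in every mouse, while Pex10 scatters around zero from -0.67 to 0.48.

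HetKO mice were compared with Wt mice within each diet and zone, the question of the study's genotype design. On the HFD, Phyh, Nudt7 and perivenous Aldh3a2 had higher mean values in HetKO than in Wt, but 0 of 5 members passed the test in either zone, as did 0% of the 6805 genes in each of the 4 genotype comparisons (limma). Phyh averaged 616 ± 93.7 perivenously in HetKO HFD and 323 ± 134 in Wt HFD (SD, n = 4 each), a log2 difference of 1.07 ± 0.25 (SE, adjusted p = 0.25). Periportal Phyh averaged 523 ± 49.4 in HetKO HFD and 249 ± 148 in Wt HFD, a log2 difference of 1.22 ± 0.28 (adjusted p = 0.176). It was the 1 member whose periportal values did not overlap between genotypes, and 2.26% of genes were likewise higher in HetKO HFD there. No member was without overlap perivenously, where 3.26% of genes were. Nudt7 averaged 260 ± 135 perivenously in HetKO HFD and 120 ± 42.4 in Wt HFD (log2 difference 1.04 ± 0.30, adjusted p = 0.25), and perivenous Aldh3a2 averaged 230 ± 54.3 in HetKO HFD and 127 ± 68.3 in Wt HFD (0.97 ± 0.31, adjusted p = 0.25). Periportal Nudt7 differed by 0.66 ± 0.28 and Aldh3a2 by 0.06 ± 0.23, while Cyp4a14 differed by 0.38 perivenously and 0.36 periportally and Pex10 by -0.14 in both zones.

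Of the 5 members, 3 in each zone had an unadjusted p under 0.05 on the HFD in limma, and 1019 genes perivenously and 992 periportally did so. edgeR on recovered reads passed 0 members in both zones (3 perivenously and 2 periportally with an unadjusted p under 0.05), and DESeq2 on rounded means passed 0 members (3 and 3), with 1 gene past the test perivenously and 5 periportally. Without Wt HFD mouse 1, the mouse with the higher share of targets above the LOQ, 3 members passed perivenously, which were Nudt7 (adjusted p = 0.00119), Phyh (9.75e-05) and Aldh3a2 (0.000433), and 2 periportally, Nudt7 (0.0396) and Phyh (4.31e-05). Without it 21.2% of all genes passed perivenously and 19.1% periportally. The 8 measured hepatocyte markers moved the same way, by 0.38 to 1.14 on the log2 scale perivenously and 0.36 to 1.22 periportally. Their summed level ran from 16941 to 28074 perivenously in HetKO HFD and 4504 to 26226 in Wt HFD, and from 37111 to 54495 periportally in HetKO HFD and 9808 to 41234 in Wt HFD. The negative probe differed by -0.21 on the log2 scale perivenously and -0.30 periportally between HetKO HFD and Wt HFD. The part of these measures in the result was not tested, and the Wt HFD mice are also in the diet comparison that chose the genes.

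On the LFD no member passed the test between genotypes. Log2 differences between HetKO LFD and Wt LFD ran from -0.15 (Aldh3a2) to 0.25 (Cyp4a14) perivenously and from 0.12 (Phyh) to 0.44 (Cyp4a14) periportally, each with adjusted p = 0.999 (limma). None of the 5 had an unadjusted p under 0.05 in limma, edgeR or DESeq2. For Phyh the 95% interval was -0.29 to 0.58 perivenously and -0.29 to 0.53 periportally, whereas for perivenous Cyp4a14 it reached from -0.93 to 1.43, with the HetKO LFD mice split into high and low.

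**Figure D3:**
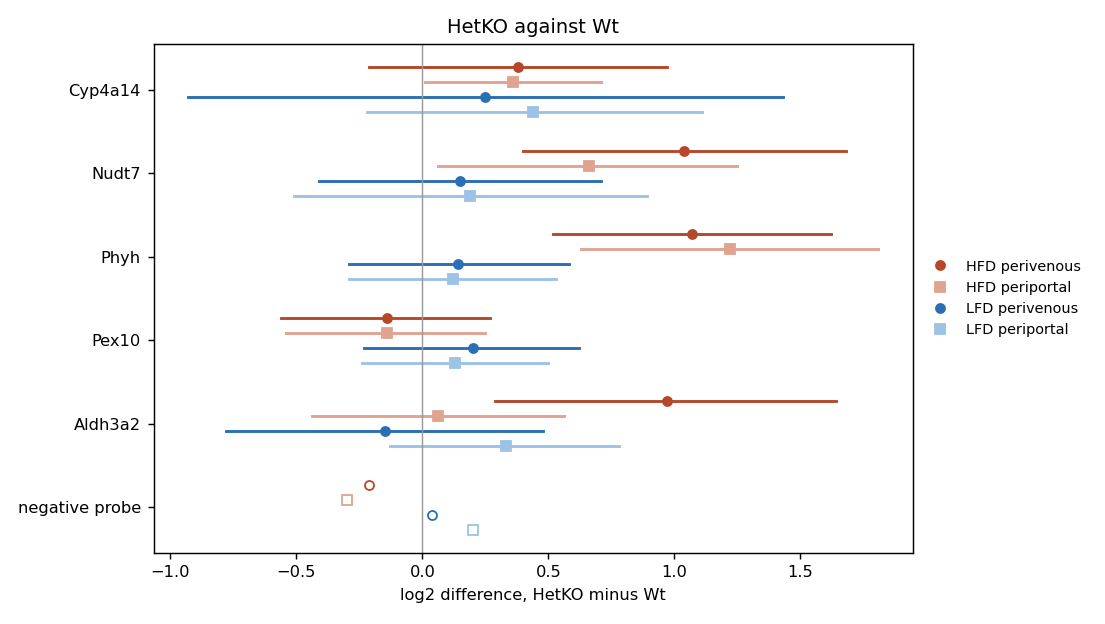
Log2 difference between HetKO and Wt (x axis) of the 5 members and of the negative probe (y axis) on each diet and in each zone. Points are estimates, horizontal bars are 95% intervals from limma, and open symbols without bars are the negative probe. Phyh has the highest HFD estimates, 1.07 perivenously and 1.22 periportally, and the LFD intervals of all 5 members include zero.

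Between the diets the members moved in opposite directions, as the choice of the set provides. Nudt7 and Phyh were lower on the HFD in both zones and both genotypes. Nudt7 differed between HFD and LFD by -1.14 perivenously and -1.39 periportally on the log2 scale in HetKO mice, and by -2.02 and -1.86 in Wt mice. Phyh differed by -0.91 perivenously and -0.65 periportally in HetKO mice, and by -1.83 and -1.75 in Wt mice. Phyh values did not overlap between the diets in any genotype and zone, where the share of all genes that were lower on the HFD without overlap was 9.82% in perivenous and 7.94% in periportal HetKO and 9.55% in perivenous and 7.82% in periportal Wt AOIs. Nudt7 values did not overlap in Wt mice but did in HetKO mice, where HetKO HFD mouse 4 and HetKO LFD mouse 2 met. Without Wt HFD mouse 1, the Wt difference of Phyh was -2.09 perivenously and -2.11 periportally. The summed level of the 8 hepatocyte markers was lower on the HFD as well. Perivenously it was 16941 to 28074 in HetKO HFD and 31820 to 44696 in HetKO LFD, without overlap, and 4504 to 26226 in Wt HFD and 24664 to 45459 in Wt LFD, with overlap. Periportally it was 37111 to 54495 in HetKO HFD and 56748 to 74291 in HetKO LFD, and 9808 to 41234 in Wt HFD and 46955 to 90712 in Wt LFD, without overlap in both genotypes. Its part in the result was not tested.

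Cyp4a14 was higher on the HFD, by 1.00 perivenously and 1.01 periportally in HetKO mice and by 0.87 and 1.09 in Wt mice on the log2 scale. The perivenous HetKO value was 0.55 without HetKO LFD mouse 3 and 1.43 without HetKO LFD mouse 2. Periportal values did not overlap between the diets in either genotype, since HetKO HFD mice had at least 70.6 against at most 60.8 in HetKO LFD, and Wt HFD mice had at least 59.4 against at most 52.8 in Wt LFD. Without overlap, 7.41% of all genes were higher on the HFD in periportal HetKO and 13.2% in periportal Wt AOIs. Over the negative probe, periportal Cyp4a14 averaged 3.62 in HetKO HFD and 2.35 in HetKO LFD, and 2.25 in Wt HFD and 1.93 in Wt LFD, and in Wt HFD mouse 4 it exceeded the LOQ in 0 of 3 AOIs. Perivenous values overlapped, because HetKO LFD mice 2 and 4 and Wt LFD mouse 1 reached HFD levels. Cyp4a10, a related omega-hydroxylase encoded next to Cyp4a14 on chromosome 4 (Cyp4a14 at chr4:115486200-115496158, Cyp4a10 at chr4:115518287-115533649), was split the same way in HetKO LFD, with 337 and 229 in mice 2 and 4 against 29.9 and 24.6 in mice 1 and 3 perivenously. Over the 32 values the 2 genes correlated at r = 0.78. In Wt mice Cyp4a10 did not pass the test between diets (perivenous log2 difference -0.78 ± 0.41, limma, adjusted p = 0.174), and in HetKO mice it passed periportally (2.82-fold higher on the HFD, limma, adjusted p = 0.0406). Periportal Cyp4a10 in HetKO LFD was 10.4 and 20.4 in mice 1 and 3, with 0 of 3 AOIs above the LOQ in each. Mice 2 and 4 had 62.4 and 70.4 there. Whether the probes bind both transcripts was not tested.

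Aldh3a2 had no common direction between the diets. In Wt mice it was lower on the HFD perivenously, with a log2 difference of -0.99, and higher periportally, with 0.90. The Wt zone difference of Aldh3a2 was thus 1.17 on the HFD and 3.06 on the LFD. In HetKO mice the diet difference was 0.13 perivenously and 0.64 periportally. Without Wt HFD mouse 1 the Wt values were -1.31 perivenously and 0.67 periportally. The negative probe, a probe with no target in the mouse, was higher on the HFD by 0.33 to 0.82 on the log2 scale. Periportal Aldh3a2 averaged 1.74 to 2.37 times the negative probe over the 4 groups. In periportal Wt AOIs the negative probe was higher by 0.82, and Aldh3a2 averaged 2 times it on the HFD and 1.74 on the LFD. Aldh3a2 exceeded the LOQ there in 4 of 12 HFD and 1 of 12 LFD AOIs. The part of the background in this difference was not tested.

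Pex10 was higher on the HFD by 0.37 perivenously and 0.43 periportally in HetKO mice, and by 0.71 and 0.70 in Wt mice, although scaling to nuclei gave a periportal HetKO value of -0.40, in a comparison where that scaling moved the median of all genes to -0.79. The negative probe differed by 0.39 and 0.33 in HetKO mice and by 0.65 and 0.82 in Wt mice. Divided by the negative probe, Pex10 averaged from 2.12 to 2.57 in all groups and zones. Over the 32 values Pex10 and the negative probe correlated at r = 0.85 (0.83 over the 16 HFD values and 0.56 over the 16 LFD values), which share the AOI, its scale factor and the slide. For Phyh this correlation was -0.83 over the 32 values, -0.79 over the HFD values and -0.44 over the LFD values. In the same order it was -0.75, -0.37 and -0.51 for Nudt7, and 0.54, -0.44 and 0.62 for Cyp4a14. Aldh3a2 had 0.07, -0.31 and 0.26.

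**Figure D4:**
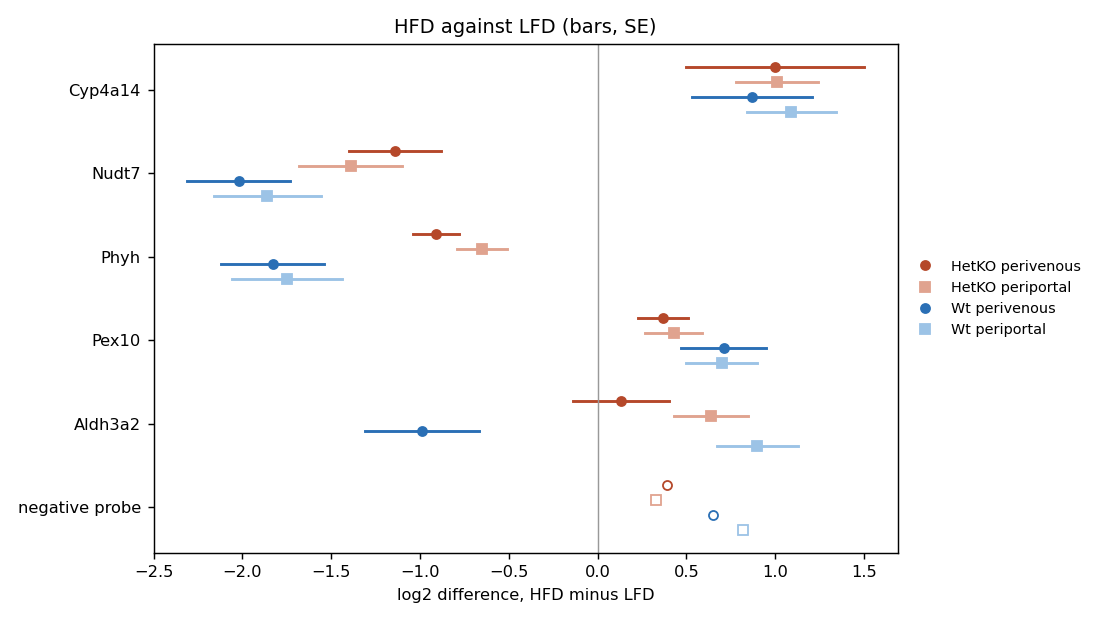
Log2 difference between HFD and LFD (x axis) of the 5 members and of the negative probe (y axis) in each genotype and zone. Points are estimates, horizontal bars are the standard error and open symbols without bars are the negative probe. Nudt7 and Phyh lie between -2.02 and -0.65, Cyp4a14 between 0.87 and 1.09, and Pex10 close to the negative probe. The genes were chosen by this comparison, which is shown without a test.

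Among the members, Nudt7 and Phyh ran closest together, with r = 0.89 over the 32 values, 0.74 over the 16 HFD values and 0.83 over the 16 LFD values. Cyp4a14 and Aldh3a2 had r = 0.51, and Pex10 and Aldh3a2 -0.06. These correlations describe values that share mice, slides and scaling. The genes most like each member over the 32 values were Cyp2b13, Cd36 and Cidec for Cyp4a14 (r from 0.80 to 0.88), Rdh16, Cyp2a4 and Lect2 for Aldh3a2 (0.94 to 0.95), Asgr1, Mtarc2 and Rbp4 for Phyh (0.97 each) and, among others, Amacr and Ces3b for Nudt7 (0.93 and 0.92). For Pex10 they were Psg25, Cldn16 and 6330403K07Rik (0.92 to 0.93), which were above the LOQ in 30, 27 and 16 of 96 AOIs.

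The other genes of the pathway were taken from lists of omega, alpha and beta-oxidation, import, coenzyme A handling, peroxins, oxidases and Ppara targets, of which 98 were tested. Between zones over all mice, 36 were higher perivenously, 4 were lower and 58 did not pass (limma). Of all genes tested, 7.95% were higher and 8.16% lower. The median log2 difference of the 98 genes was 0.12, against 0.01 for all genes tested. Of the 13 beta-oxidation genes 9 were higher, among them Eci2 (0.82 ± 0.08), an enoyl-CoA isomerase, Acaa1b (0.66 ± 0.07), a thiolase, and Ehhadh (0.42 ± 0.07), the bifunctional enzyme. Family 4 omega-hydroxylases were higher in 3 of 10 cases, Cyp4a10 (1.69 ± 0.15), Cyp4a12a (0.98 ± 0.10) and Cyp4a32 (0.49 ± 0.09). Of 21 peroxins and matrix proteases, 3 were higher, Pex11a (0.72 ± 0.08), which helps peroxisomes divide, Lonp2 (0.33 ± 0.06) and Pex3 (0.23 ± 0.06). Aldehyde and alcohol dehydrogenases were divided, with Aldh1a1 (1.43 ± 0.11) and Aldh2 (0.70 ± 0.06) higher and Aldh1b1 (-1.51 ± 0.15) lower perivenously. Uox, urate oxidase, at -1.0 ± 0.06, and Agxt, at -0.73 ± 0.08, were lower perivenously, and so was Nudt19, another peroxisomal coenzyme A hydrolase, at -0.21 ± 0.07.

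Between diets the same 98 genes were mostly lower on the HFD where they passed the test. In perivenous HetKO AOIs 4 were higher and 26 lower, against 12.4% and 9.74% of all genes, and in periportal HetKO AOIs 1 was higher and 14 lower, against 3.63% and 5.19% (limma). In perivenous Wt AOIs 2 were higher and 46 lower, against 10.2% and 12.3%, and in periportal Wt AOIs 6 were higher and 40 lower, against 15.4% and 12.7%. The counts in HetKO fell to 0 in both zones when the 4 groups of each zone were fitted together or, as did perivenous Wt, with scaling to nuclei. Scaled to nuclei, 0% of all genes passed in perivenous HetKO, 0.367% in periportal HetKO and 0.0147% in perivenous Wt. The counts also moved with single mice. The 15 genes of periportal HetKO were 1 without HetKO LFD mouse 1, and the 48 of perivenous Wt were 5 without Wt LFD mouse 3 and 67 without Wt HFD mouse 1.

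Cat, which breaks down hydrogen peroxide, was lower on the HFD in both zones of both genotypes, with log2 differences of -0.69 ± 0.12 (adjusted p = 0.00592, limma) in perivenous HetKO and -1.64 ± 0.37 (adjusted p = 0.0141) in perivenous Wt AOIs. Uox was lower as well, with -0.74 ± 0.14 in perivenous HetKO and -1.57 ± 0.39 in perivenous Wt AOIs, and 7 of the 9 genes of peroxide removal and other peroxisomal oxidases were lower in perivenous HetKO and 6 in perivenous Wt. Beta-oxidation genes that were lower in both genotypes perivenously included Scp2, a sterol and fatty acid carrier with thiolase activity, Pecr, an enoyl-CoA reductase, and Amacr, a racemase of branched acyl-CoA. Ehhadh did not pass the test in any of the 4 comparisons, with log2 differences from -0.75 to 0.20.

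Of the alpha-oxidation genes, Hacl1, the lyase that acts after Phyh, was lower, with -0.52 ± 0.14 in perivenous HetKO (adjusted p = 0.0203) and -0.69 ± 0.18 in perivenous Wt AOIs (adjusted p = 0.0213, limma). Among the omega-hydroxylases, Cyp4f14 was lower in all 4 comparisons (-1.11 ± 0.19 in perivenous HetKO and -1.35 ± 0.21 in perivenous Wt), as was Cyp4v3, and Cyp4a12a was lower in 3 of them. On the higher side, Cyp4f18 passed in perivenous HetKO (0.45 ± 0.13) and periportal Wt AOIs (0.73 ± 0.26), Cyp4f16 in periportal Wt (0.81 ± 0.23) and Cyp4a10 in periportal HetKO. In these comparisons the negative probe was also higher, by 0.39 in perivenous HetKO, 0.82 in periportal Wt and 0.33 in periportal HetKO. Its part in these values was not tested. Slc27a2, which activates very long chains, was lower in all 4, with -0.54 ± 0.12 in perivenous HetKO and -1.62 ± 0.30 in perivenous Wt. Acsl1 and the transporter Abcd3 were lower in Wt and not past the test in HetKO, a contrast that was not tested. Of the 21 peroxins and matrix proteases, 1 was higher and 1 lower in perivenous HetKO and 1 higher and 2 lower in perivenous Wt. The higher one in HetKO was Pex5l (0.42 ± 0.13), in the comparison where the negative probe was higher by 0.39. Pxmp2, a peroxisomal membrane channel, was lower in both genotypes. Ppara itself was lower in perivenous Wt (-1.01 ± 0.26, adjusted p = 0.0206), and in perivenous HetKO it differed by -0.17 ± 0.14 (adjusted p = 0.421).

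**Figure D5:**
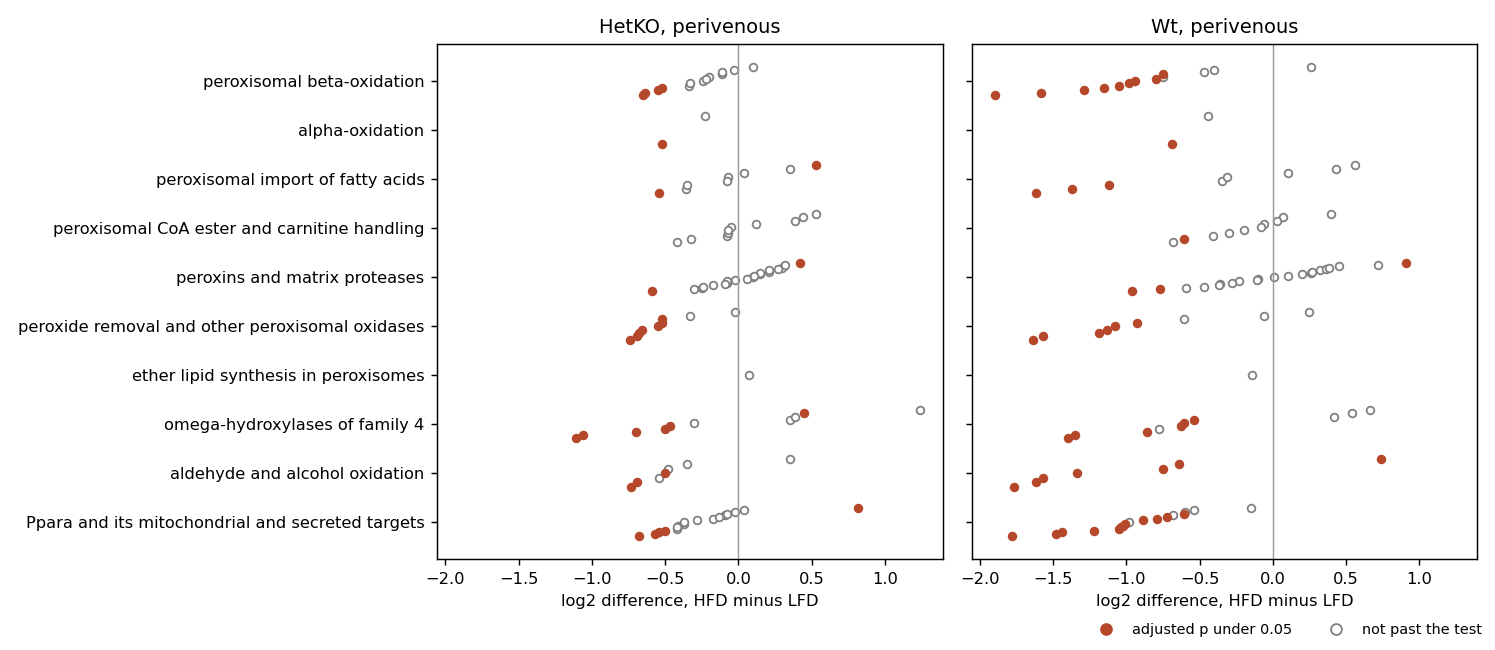
Log2 difference between HFD and LFD (x axis) of the 98 other genes of the pathway in perivenous AOIs, by list (y axis), in HetKO (left) and Wt mice (right). Filled circles are genes with adjusted p under 0.05 in limma and open circles are the others. In HetKO 26 genes and in Wt 46 genes lie past the test on the lower side.

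Between genotypes 0 of these 98 genes passed in any of the 4 comparisons (limma). On the HFD 45 of them perivenously and 44 periportally had an unadjusted p under 0.05, against 1019 and 992 of all 6805 genes. On the LFD 1 perivenously and 0 periportally had such a p, against 95 and 222 of all genes. The median log2 difference of the 98 genes between HetKO HFD and Wt HFD was 0.35 perivenously and 0.30 periportally, against 0.03 and -0.01 for all genes tested. The 8 measured hepatocyte markers were also higher in HetKO HFD, by 0.38 to 1.14 perivenously and 0.36 to 1.22 periportally. Their part in these values was not tested. Cat, for example, differed by 1.06 ± 0.33 perivenously (adjusted p = 0.25).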

How the data were processed

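RNA was measured in 96 AOIs of 16 mice. The authors processed the reads with the GeoMx NGS Pipeline 2.3.3.10, and the submitters' processing notes name the build mm10. The deposited signal values are deduplicated tag counts that the authors scaled for each AOI, so that the third quartile is 60.2, whereas the study's methods describe a normalization to nuclei. Dividing by the AOI factor returned whole reads (within 0.01) for 99.95% of values, and 5 targets were not whole in some AOI. The deposited counts of nuclei and of deduplicated reads per AOI, and the deposited percent of sequencing saturation, described depth. In all, 12 per-sample columns were not used.

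The mean of log2(value + 1) per mouse and zone (3 AOIs) was tested with limma 3.58.1 (lmFit and eBayes, R 4.3.3), with the mouse as a block between zones and without a block between groups, for 6805 genes that exceeded the LOQ in 10 or more of the 96 AOIs (589 were not tested). Fold changes are on this scale, which understates those of low genes. P-values are two-sided and adjusted by Benjamini-Hochberg over all genes tested, and passed means an adjusted p under 0.05. The test was checked on simulated data. Alternatives were a pseudocount of 5, no filter, a filter of 50% of AOIs (2908 genes), subtraction of the negative probe (floor 1), scaling to nuclei, edgeR 4.0.16 on recovered reads, DESeq2 1.42.0 on rounded means, log2 of the mean over AOIs, the replicate block, 1 fit of 4 groups, a log2 difference of at least 0.80 and each mouse left out.

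The members and the gene lists were chosen with earlier results of these data known. All 5 members, Cyp4a10, the tested genes of the lists and the 3 genes most like each member by Pearson's r could be named. Some genes that this rule takes are not reported here. Promoter windows of 250 bases are from RefSeq (GRCm38.p6).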

Additional observations from a re-analysis of the deposited data

Results flagged for a closer look

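Of 40 groups of 4 mice (5 members in 4 groups and 2 zones), 5 held a mouse whose distance to its nearest neighbour took up most of the range of the group, by Dixon's criterion, where chance gives about 1 in 20 groups. In Wt HFD, mouse 1 stood above the other 3 mice for periportal Phyh (469 against 145 to 194), periportal Aldh3a2 (83.1 against 42.1 to 46) and perivenous Nudt7 (183 against 92.9 to 108). Periportal Cyp4a14 was 78.6 in Wt HFD mouse 2, against 59.4 to 60.4 in the others. Perivenous Pex10 was 52.6 in HetKO LFD mouse 2, against 41.2 to 42.9 in the others. Wt HFD mouse 1 also had a negative probe of 20.5 perivenously and 21.2 periportally, against 29.3 to 38.9 in the other Wt HFD mice, and the part of this in the result was not tested.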

How the results depend on the processing

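The zone count over all mice, 4 of 5 members, stayed at 4 under each setting except without the replicate block (1 member) and with a log2 difference of at least 0.80 (1 member). The mouse is a block there because both zones come from the same animal. In single groups, the counts without the replicate block were 1 for HetKO HFD, 1 for HetKO LFD, 0 for Wt HFD and 1 for Wt LFD, and with a difference of at least 0.80 they were 1 in HetKO HFD, HetKO LFD and Wt LFD. With the negative probe subtracted they were 0 for HetKO HFD, 1 for HetKO LFD, 0 for Wt HFD and 1 for Wt LFD. Of all genes, 0.632%, 1.88%, 0.162% and 1.28% passed there in either direction. Scaled to nuclei the counts of members were 5, 1, 0 and 1 in the same groups, with 80.6%, 0.676%, 0.22% and 0.676% of all genes. That scaling moved the median of all genes to 0.71 in HetKO HFD. edgeR passed 2 members in Wt HFD and 4 in Wt LFD, with 2.82% and 9.17% of all genes, and the stricter filter passed 4 in Wt LFD. Leaving out a mouse gave 2 to 3 members in HetKO HFD, and 1 to 2 in HetKO LFD and in Wt LFD. The cause of these changes was not tested.

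The sample titles give each mouse a number and do not say whether same-numbered mice of different groups belong together. The deviations of same-numbered mice correlated from -0.591 to 0.482, which does not settle this, and the main fits treat them as unpaired. With the number as a replicate block, 3 members passed between HetKO HFD and Wt HFD perivenously and 1 periportally, with 5.67% and 4.16% of all genes, and the pathway genes past the test between diets were 1 in perivenous and 22 in periportal Wt. Leaving out a mouse gave 0 to 3 members between HetKO HFD and Wt HFD perivenously and 0 to 2 periportally, the highest without Wt HFD mouse 1. Scaled to nuclei, all 5 members passed between HetKO LFD and Wt LFD periportally, where that scaling moved the median of all genes to 0.82 and 91.7% of all genes passed.

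For the other pathway genes between diets, 30 in perivenous and 15 in periportal HetKO, and 48 in perivenous and 46 in periportal Wt, subtraction of the negative probe gave 5, 0, 28 and 25 genes, and scaling to nuclei 0, 0, 0 and 17. Of all genes, 7.33%, 0.132%, 16.6% and 18.1% passed with the subtraction, and 0%, 0.367%, 0.0147% and 4.98% with that scaling. The main fits passed 22.1%, 8.82%, 22.5% and 28.1%. One fit of 4 groups gave 0 in both HetKO zones, and a difference of at least 0.80 gave 3 in both. Leaving out a mouse gave 18 (HetKO HFD mouse 2 or 3) to 35 (HetKO LFD mouse 2) in perivenous HetKO and 1 (HetKO LFD mouse 1) to 24 (HetKO LFD mouse 2) in periportal HetKO. In Wt it gave 5 (Wt LFD mouse 3) to 67 (Wt HFD mouse 1) perivenously and 21 (Wt LFD mouse 3 or Wt HFD mouse 2) to 60 (Wt HFD mouse 1) periportally.

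Directions turned in 34 of 217 settings for Pex10, 14 for Aldh3a2, 9 for Cyp4a14, 8 for Phyh and 6 for Nudt7. The zone difference of Pex10 over all mice was -0.11 with the negative probe subtracted and -0.02 to 0.05 with a mouse left out. Its zone difference was 0.68 in HetKO HFD, 0.37 in Wt HFD and 0.42 in Wt LFD scaled to nuclei (median of all genes 0.71, 0.36 and 0.41), 0.01 in HetKO HFD and 0.03 in Wt LFD with log2 of the mean over AOIs, 0.06 in Wt HFD and 0.09 in Wt LFD with edgeR, and 0.01 and 0.03 in these 2 groups with DESeq2. With a mouse left out it was -0.13 to 0.10 in HetKO HFD, -0.13 to 0.06 in Wt HFD and -0.18 to 0.21 in Wt LFD. Between HetKO HFD and Wt HFD, Pex10 was 0.19 perivenously scaled to nuclei and 0.01 periportally with the negative probe subtracted, and periportal Aldh3a2 was -0.02 with edgeR and -0.07 to 0.29 with a mouse left out.

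Between HetKO LFD and Wt LFD perivenously, Nudt7 was -0.01 with edgeR and Aldh3a2 0.23 scaled to nuclei, and leaving out a mouse gave -0.19 to 0.69 for Cyp4a14, -0.13 to 0.32 for Nudt7, -0.06 to 0.30 for Phyh and -0.46 to 0.03 for Aldh3a2. Periportally it gave -0.12 to 0.48 for Nudt7 and -0.04 to 0.23 for Phyh. For the difference of zones between HetKO HFD and Wt HFD, Cyp4a14 was -0.04 and Pex10 -0.14 with the negative probe subtracted, Phyh 0.20 scaled to nuclei, and with a mouse left out Cyp4a14 was -0.16 to 0.27 and Pex10 -0.12 to 0.12. For that between HetKO LFD and Wt LFD, Phyh was -0.37 and Pex10 -0.36 scaled to nuclei, and leaving out a mouse gave -0.46 to 0.10 for Cyp4a14, -0.16 to 0.07 for Nudt7, -0.05 to 0.11 for Phyh and -0.15 to 0.23 for Pex10. Between diets, perivenous HetKO Aldh3a2 was -0.01 scaled to nuclei, -0.01 with edgeR, -0.04 with DESeq2 and -0.04 to 0.44 with a mouse left out, and scaled to nuclei periportal HetKO Pex10 was -0.40 and Aldh3a2 -0.19 (median of all genes -0.79).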

Other observations

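Between mice of a group and zone the 5 members varied with a coefficient of variation of 9.45% to 81.6%, and between the AOIs of a mouse the mean coefficient was 4.88% to 35%. The lowest between mice was periportal Phyh in HetKO HFD and the highest perivenous Cyp4a14 in HetKO LFD. The highest between AOIs was periportal Aldh3a2 in Wt LFD, where 1 of 12 AOIs was above the LOQ.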
